A study of Mus musculus with 8 samples.

Results

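The regions described here are E2F3 peaks that overlapped a listed H3K27me3 peak and no listed HELLS peak in wild-type mouse embryonic fibroblasts. They were chosen by overlap of the authors' wild-type peak lists: each is an E2F3 peak that shared at least 1 bp with an H3K27me3 peak and none with a HELLS peak. Of 8889 wild-type E2F3 peaks, 1399 met this rule. A further 433 E2F3 peaks overlapped both other lists, 1211 overlapped HELLS alone, and 5846 overlapped neither and are called E2F3-alone peaks below. The wild-type reads of all 3 antibodies therefore chose the sites, and the wild-type levels and the differences from wild type are given as descriptions. Levels in E2f3-null cells did not enter the rule.

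Chromatin immunoprecipitation with sequencing was done on fibroblasts from embryos at E13.5. The cells were wild type or E2f3-/- (called E2f3 null here), and each genotype had 1 library per antibody, to E2F3, HELLS and H3K27me3, and a control IgG. The IgG reads given for both genotypes were identical, so there were 7 distinct libraries. How many embryos stood behind a library, and whether the null cells shared a litter with the wild-type ones, is not given in the sources used here. With 1 library in each antibody and genotype, a difference compares 2 libraries and not the genotypes, and no p-value is given. All positions are on mm9, and no gene names are attached because no annotation of that build was used.

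E2F3 belongs to the E2F transcription factors. It binds near the start of genes for DNA replication and the cell cycle and can activate or repress them depending on its partners, among them the retinoblastoma protein. H3K27me3 is the methyl mark that Polycomb repressive complex 2 places on histone H3, and it covers silent developmental genes in fibroblasts. HELLS is a helicase of the SNF2 family that moves nucleosomes and is needed for normal DNA methylation. The sites described here thus had a listed peak of an E2F factor that overlapped a listed peak of a Polycomb mark. Overlap of peak lists does not show that both were on the same DNA molecule, or that HELLS was absent.

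Distinct reads numbered 3799779 to 5640555 per ChIP library and 7219419 for IgG. The single IgG library served as background for both genotypes. Reads were scaled by the distinct reads outside all listed peaks. Intervals are exact 95% intervals, which cover counting error only, and intervals of shares count each site as independent although neighbouring sites share a domain. A call of lower or higher needed E2f3-null and wild-type reads to differ at least 2-fold after scaling, with an interval that left out 1.

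As E2F3 peaks, these sites were weaker and shorter than the others. Their median authors' score, which is 10 times the negative log10 of the peak caller's p-value, was 89.0, against 124 at E2F3-alone peaks, 150 at sites in all 3 lists and 280 at sites with E2F3 and HELLS alone. Median length was 604 bp against 647, 754 and 868 bp. Wild-type E2F3 reads per site ran from 6 to 229 with a median of 30, and E2f3-null reads of the same antibody ran from 0 to 57 with a median of 12. H3K27me3 reads ran from 1 to 455 (median 48) in wild type and from 0 to 151 (median 11) without E2f3. HELLS reads ran from 0 to 77 (median 14) and from 0 to 96 (median 17), and IgG reads from 0 to 64 (median 11). The typical site therefore held more wild-type reads of H3K27me3 and E2F3 than of HELLS or IgG. The IgG library itself was 5.20 times as dense at these sites as outside peaks, and 5.41 times as dense at E2F3-alone peaks.

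Over IgG, the median log2 enrichment of the sites in wild-type cells was 2.10 for E2F3, 2.66 for H3K27me3 and 0.80 for HELLS. In E2f3-null cells it was 0.89, 1.04 and 1.08. H3K27me3 exceeded E2F3 over IgG at 916 sites (65.5%) in wild-type cells. At 1012 sites (72.3%) wild-type H3K27me3 was at least 4-fold over IgG, and at 59 (4.22%) it was under 2-fold, so that for a few sites the overlap with the mark was slight.

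**Figure D1:**
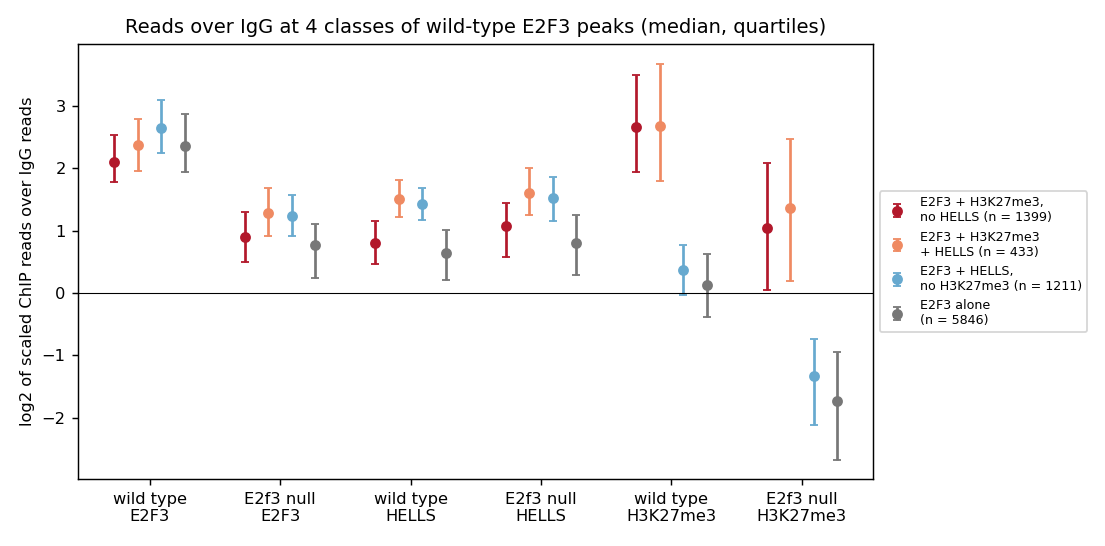
Log2 of scaled ChIP reads over IgG reads (y axis) in each of 6 libraries (x axis) at 4 classes of wild-type E2F3 peaks; points are medians over peaks and bars run from the lower to the upper quartile. The sites with H3K27me3 but no HELLS (red) stand at 2.66 for wild-type and 1.04 for E2f3-null H3K27me3, while the E2F3-alone peaks (grey) stand at 0.12 and -1.74.

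The overlap rule admits sites at the rim of a marked region. The smallest overlaps were 1 bp, at chr11:107408652-107408984 (2 wild-type H3K27me3 reads, 6 IgG reads) and at chr15:78267229-78267754 (14 and 7 reads), and 4 bp at chr10:119989461-119989976 (18 and 10 reads). The nearest E2F3-alone peaks missed an H3K27me3 peak by 9 bp on chromosome 10 from 21869322 (8 and 2 reads), by 10 bp on chromosome 8 from 36439415 (4 and 4 reads) and by 11 bp on chromosome 10 from 66998584 (10 and 11 reads). Sites just inside and just outside the rule thus had like read numbers. Such rims were the minority: the E2F3 summit lay inside the H3K27me3 peak at 1339 sites (95.7%), and 1040 sites (74.3%) lay in it from end to end.

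Most of these sites sat in short stretches of H3K27me3. Joining wild-type H3K27me3 peaks less than 5 kb apart gave 9429 domains, of which 1312 held a site. The domains with a site had a median length of 1777 bp (quartiles 1040 and 4422), against 817 bp over all domains. Domains over 10 kb made up 136 (10.4%) of those with a site, and 471 of all 9429. The longest one with a site ran for 68787 bp. Counted per site, the median domain length was 1870 bp, against 1623 bp for the sites in all 3 lists. Domains over 10 kb held 12.3% of these sites and 13.4% of those in all 3 lists, so short domains were not particular to this class. In 1233 domains there was 1 site, in 73 there were 2, in 5 there were 3, and in 1 there were 5.

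The 1366 H3K27me3 peaks that touched a site were 8.01% of the 17064 listed. Their median length was 1261 bp against 590 bp in the whole list, and their median score 254 against 85.3. Of them 780 (57.1%) were in the highest-scoring and 140 (10.2%) in the lowest-scoring of 4 equal groups of that list. These were, then, mostly among the better supported H3K27me3 peaks of the wild-type library. An overlap of 1 bp is met more easily by a long peak, which favoured longer peaks and longer domains in advance. The part of length in the scores was not tested.

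H3K27me3 reads were denser near the E2F3 summit than in the flanks. The rule asked for overlap with a wild-type H3K27me3 peak, which favoured a central rise of the wild-type mark in advance. The wild-type values are therefore a description. The E2F3 summit lay within 250 bp of the H3K27me3 summit at 860 sites (61.5%), with a median distance of 159 bp. Within 250 bp of the E2F3 summit, wild-type H3K27me3 reads were 4.34 times as dense as from 500 to 2000 bp on both sides, and E2f3-null reads 3.001 times. IgG reads were 2.84 times as dense in the centre and wild-type E2F3 reads 10.1 times. H3K27me3 was denser in the flanks than in the centre at 50 sites (3.57%) in wild type and 241 (17.2%) in null cells. At sites in all 3 lists the centre to flank ratio was 4.59 for wild-type and 4.003 for E2f3-null H3K27me3. At E2F3-alone peaks the same ratio was 3.74 for wild-type and 1.64 for E2f3-null H3K27me3, and 3.24 for IgG. At sites with E2F3 and HELLS alone it was 4.22, 2.35 and 3.11 in the same order. A central rise of the wild-type library was thus also seen where no H3K27me3 peak was listed. At sites with E2F3 and HELLS alone its ratio was near that of the marked sites. From 3 to 5 kb away from the summit the wild-type H3K27me3 density was 1.74 at the marked sites. There it was 0.635 at E2F3-alone peaks and 0.558 at sites with E2F3 and HELLS alone (reads per kb, scaled to the reads outside peaks).

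**Figure D2:**
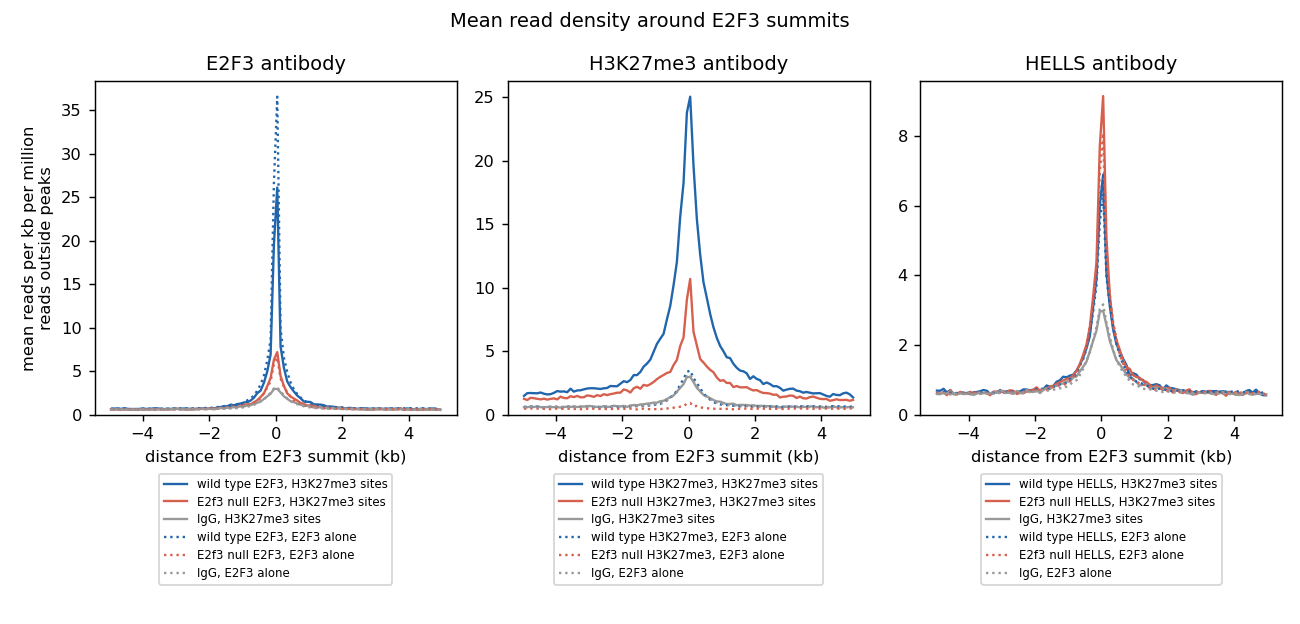
Mean reads per kb, scaled to the reads outside peaks (y axis), in 100 bp steps from 5 kb before to 5 kb after the E2F3 summit (x axis), for the sites with H3K27me3 but no HELLS (solid) and E2F3-alone peaks (dotted); blue is wild type, red E2f3 null and grey IgG. H3K27me3 at the marked sites peaks at the summit in both genotypes and stays above IgG up to 5 kb away, and the wild-type H3K27me3 line at E2F3-alone peaks runs close to IgG.

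The 5 sites with the highest E2F3 scores had less H3K27me3 over IgG than the class median, with log2 values from 0.68 to 1.47. At chr7:56136082-56137584 there were 187 wild-type and 18 E2f3-null E2F3 reads, 20 and 3 H3K27me3 reads, 17 and 21 HELLS reads and 18 IgG reads. The E2F3 ratio was 0.100 (0.0580 to 0.162) and the H3K27me3 ratio 0.201 (0.0383 to 0.679). The site at chr4:88940226-88941669 held 229 and 26 E2F3 reads, 34 and 3 H3K27me3 reads, 36 and 41 HELLS reads and 26 IgG reads. Both sites lost most E2F3 antibody reads, and their scaled wild-type H3K27me3 stood at log2 0.71 and 0.94 over IgG, under the class median of 2.66. E2F3 reads were 118 and 20 at chr16:30008668-30009428, 149 and 19 at chr19:56471316-56472051, and 148 and 23 at chr11:118883994-118885060. The H3K27me3 peaks at these 5 sites had scores between 50.6 and 87.0. None of the 5 lay in a listed E2f3-null H3K27me3 peak.

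The 5 sites with the highest H3K27me3 peak scores were weak E2F3 peaks, with E2F3 scores from 59.9 to 82.4 against a class median of 89.0. Their E2F3 reads differed less between genotypes than at the sites above, which were picked for high wild-type E2F3 scores. The part of E2F3 peak strength in this was not tested. At chr6:52266537-52267077 H3K27me3 reads were 162 with E2f3 and 60 without it, a ratio of 0.497 (0.364 to 0.673), while E2F3 reads were 23 and 17, HELLS reads 21 and 25 and IgG reads 14. The E2F3 ratio of this site, 0.768 (0.385 to 1.502), was within counting error of 1. The same held at chr12:56699893-56700946, with 245 and 53 H3K27me3 reads, 32 and 20 E2F3 reads, 31 and 24 HELLS reads and 22 IgG reads. The other 3 lay at chr6:23197402-23197808 (67 and 24 H3K27me3 reads, 11 and 10 E2F3 reads), chr7:53651542-53652366 (152 and 39, 39 and 29) and chr16:94085213-94085834 (140 and 43, 26 and 15). All 5 lay in an E2f3-null H3K27me3 peak, and the intervals of all 5 E2F3 ratios included 1. Among H3K27me3 peaks 63 had a score of 3100 or more, and 21 of these touched a site. Several held the same score of 3100, taken here as a ceiling. The order at the top therefore does not rank the strength of the mark, and these 5 cannot be called the strongest peaks.

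Across the class the relation depended on the measure. All E2F3 peaks were divided by score into 4 equal groups. In the lowest group the 531 sites had a median log2 wild-type H3K27me3 over IgG of 3.01, followed by 2.83 (472 sites), 2.31 (282 sites) and 1.93 (114 sites) in the highest group. The share in an E2f3-null H3K27me3 peak was 44.8%, 47.5%, 37.2% and 17.5% in the same order. Sites with higher E2F3 scores thus had less H3K27me3 over IgG, but median H3K27me3 reads were 47, 55, 48 and 37 and median IgG reads 8, 11, 16 and 14. In 4 groups of the sites by wild-type H3K27me3 over IgG, lowest first, median log2 E2F3 over IgG was level, at 2.10, 2.08, 2.07 and 2.12. Both of these measures share the IgG count, and its part in this was not tested. Median wild-type E2F3 reads in these groups were 42, 31, 30.5 and 22.5, and median IgG reads 14, 11, 11 and 8. Median E2F3 scores were 117, 91.5, 88.8 and 73.3. Taken per length and without IgG, wild-type E2F3 and H3K27me3 densities were unrelated across the 1399 sites (Spearman rho -0.01, description only, all counts from the same sites).

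The E2F3 antibody signal without E2f3 was examined next. It was lower at 763 of the 1399 sites (54.5%, 51.9 to 57.2) and higher at 0. Over all wild-type E2F3 peaks 73.3% were lower and 0% higher. The reads summed to 49356 with E2f3 and 19742 without it, a ratio of 0.416 (0.409 to 0.423). The median log2 ratio was -1.21 (quartiles -1.71 and -0.82), or -1.25 with the 16 sites at 0 null reads set to a floor of 3 counts, against -1.69 at E2F3-alone peaks and -1.05 at sites in all 3 lists. E2f3-null reads of this antibody were at least 2-fold over IgG at 592 sites (42.3%), against 39.9% of all wild-type E2F3 peaks. Wild-type HELLS, with no listed peak here, also stood at a median log2 of 0.80 over IgG. Reads above IgG were thus particular neither to this antibody nor to these sites. In an E2f3-null peak of the E2F3 antibody lay 341 sites (24.4%, 22.1 to 26.7). The share was 28.3% of all wild-type E2F3 peaks, 22.7% of E2F3-alone peaks and 41.1% of sites in all 3 lists. In that E2f3-null list 1140 of 3314 peaks had an authors' false discovery rate above 5%. Scaled to the regions listed in both genotypes, 97 sites were lower and 22 higher, since that scaling takes out the shift of -1.16 shared by those regions.

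In groups of like authors' score, fewer of these sites than of E2F3-alone peaks were lower. The score comes from the wild-type E2F3 reads that also enter the ratio, so larger falls in higher groups were favoured in advance. Median wild-type E2F3 reads went from 19 in the lowest to 69 in the highest group, and from 17 to 85 at E2F3-alone peaks. More reads also make a call easier, and the part of this was not tested. In the lowest score group 32.4% of these sites and 52.4% of E2F3-alone peaks were lower, with median log2 ratios of -1.02 and -1.47. In the second group the shares were 53.8% and 75.6%, and in the third 80.1% and 90.7%. In the highest group they were 97.4% and 99.1%, with medians of -1.95 and -2.18. Sites in all 3 lists had smaller shares in every group, from 15.2% to 89.0%. No test of a difference between classes was made.

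**Figure D3:**
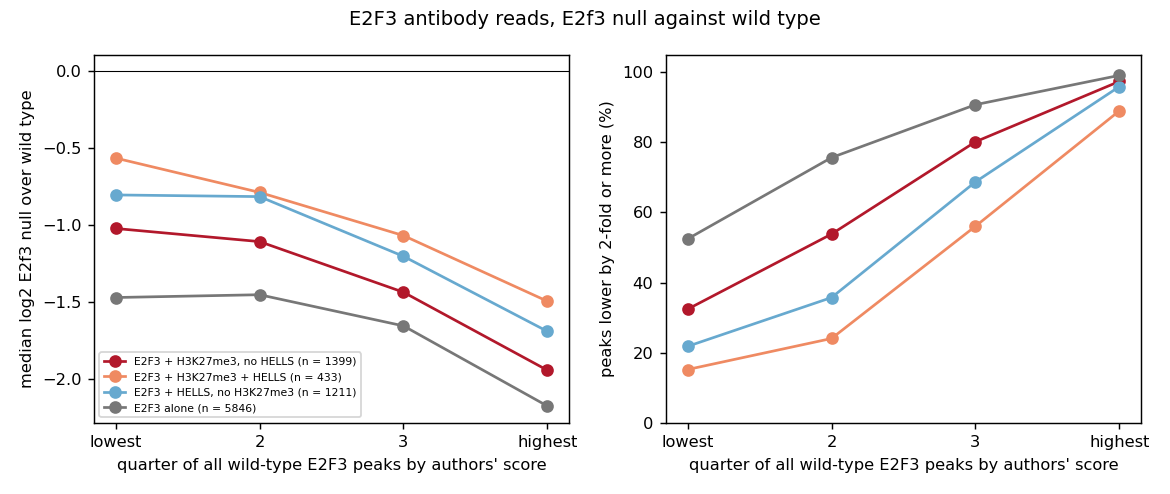
Median E2F3 antibody log2 ratio, null over wild type (left), and percent of peaks called lower (right) in 4 equal groups of all wild-type E2F3 peaks by authors' score (x axis), with 1 line per class. The sites with H3K27me3 but no HELLS (red) run from -1.02 to -1.95 and lie between the E2F3-alone peaks and the sites with HELLS in each of the 4 groups.

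Ranked by the log2 ratio with 0.5 added to the counts, the first 3 falls in E2F3 reads had 0 null reads, so the added 0.5 set their order. At the floor used below, chr7:56136082-56137584 (ratio 0.100) and chr4:88940226-88941669 (ratio 0.118) had larger falls than the last 2 of them. At chr15:78778026-78778487 34 E2F3 reads were counted in wild type and 0 in the null, with 8 and 0 H3K27me3 reads, 4 and 5 HELLS reads and 8 IgG reads. Set to a floor of 3 counts per library, this was at least 10.9-fold lower. At chr6:52161606-52161975 there were 24 and 0 E2F3 reads (at least 7.70-fold lower) beside 10 and 3 H3K27me3 reads. At chr7:52459687-52460039 there were 14 and 0 E2F3 reads (at least 4.49-fold lower) beside 16 and 1 H3K27me3 reads. The first 2 had H3K27me3 peak scores of 50.6 and 51.3, and no site had a rise whose interval left out 1.

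H3K27me3 itself was lower at 1095 sites (78.3%, 76.0 to 80.4) and higher at 0, against 48.7% and 0% of all wild-type E2F3 peaks. Since the wild-type H3K27me3 list chose the sites, nothing is read from that gap. The summed ratio was 0.359 (0.354 to 0.364) and the median log2 ratio -1.66 (quartiles -2.18 and -1.16), or -1.69 with the 46 sites at 0 null reads at the floor. Counted over the whole H3K27me3 peaks they touched, 1156 of 1366 (84.6%) were lower and 0 higher, against 46.4% of the 17064 wild-type H3K27me3 peaks. The median log2 ratios were -1.55 and -1.32. The touched peaks had a median length of 1261 bp against 590 bp and a median score of 254 against 85.3. More reads make a call easier, and the part of this in the gap between the shares was not tested. The mark was still measurable at many sites: E2f3-null H3K27me3 was at least 2-fold over IgG at 700 sites (50.04%) and at least 4-fold at 391 (27.9%), and 587 sites (42.0%, 39.4 to 44.6) lay in an E2f3-null H3K27me3 peak. Over all wild-type E2F3 peaks 11.8% were at least 2-fold over IgG and 9.19% lay in such a peak, and at sites in all 3 lists the last share was 50.6%. The wild-type mark chose the sites, so nothing is read from these gaps. In the E2f3-null H3K27me3 list 4621 of 7079 peaks had an authors' false discovery rate above 5%, against 0 of 17064 in the wild-type list, and the part of this in the share was not tested.

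Reads of the H3K27me3 antibody were also fewer where no mark was listed. At E2F3-alone peaks the summed ratio was 0.240 and the median log2 ratio -1.90, from medians of 9 wild-type reads and 1 E2f3-null read. Median log2 H3K27me3 over IgG there was 0.12 with E2f3 and -1.74 without it, so the null library was below IgG at unmarked E2F3 sites while the wild-type library was near it. How far this difference between the 2 libraries entered the values at the marked sites was not tested. Scaled to H3K27me3 regions listed in both genotypes, 302 marked sites were lower and 3 were higher, and the median was -0.64 (log2).

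Ranked in the same way, the first 3 H3K27me3 falls also had 0 null reads, and their H3K27me3 peaks had scores of 57.6 to 67.8. Their order, too, came from the added 0.5. The site at chr15:43001718-43002321, with a peak score of 155, had 36 and 1 H3K27me3 reads (ratio 0.0373, 0.000919 to 0.222) and fell further than these 3 at the floor. At chr2:150834481-150835243 there were 34 wild-type and 0 E2f3-null H3K27me3 reads, at least 8.44-fold lower, with 33 and 6 E2F3 reads, 12 and 14 HELLS reads and 18 IgG reads. At chr4:3158069-3158390 there were 27 and 0 H3K27me3 reads (at least 6.70-fold lower) and 25 and 5 E2F3 reads. At chr5:112582710-112583106 there were 21 and 0 H3K27me3 reads (at least 5.21-fold lower) and 28 and 8 E2F3 reads. E2F3 reads were lower at these sites too, and HELLS reads were alike in both genotypes within counting error. No site had an H3K27me3 rise whose interval left out 1.

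Both E2F3 and H3K27me3 were lower at 602 sites (43.0%), close to the 42.7% that the separate shares give when multiplied, and at 35.4% of all wild-type E2F3 peaks. H3K27me3 alone was lower at 493 (35.2%), E2F3 alone at 161 (11.5%), and neither at 143 (10.2%). Across the 1399 sites the log2 ratios of E2F3 and H3K27me3 had a Spearman rho of 0.11, so a larger fall of one went with a larger fall of the other only weakly.

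The density of the mark in wild-type cells went with what was found without E2f3. In 4 equal groups of the sites by wild-type H3K27me3 reads per kb, with bounds at 45.7, 78.0 and 139, the share in an E2f3-null H3K27me3 peak was 2.57%, 17.5%, 55.7% and 92.0%. For E2f3-null HELLS peaks the shares were 26.9%, 39.5%, 40.6% and 55.4%, and for E2f3-null peaks of the E2F3 antibody 17.1%, 24.1%, 23.1% and 33.1%. E2F3 was lower at 62.6%, 63.6%, 53.1% and 38.9% of the sites, with median log2 ratios of -1.40, -1.37, -1.12 and -0.93. The ratio was thus nearer to 0 in the most heavily marked group than in the least marked. E2f3-null E2F3 antibody over IgG differed little (log2 0.89, 0.77, 0.86 and 0.98), while wild-type E2F3 over IgG was 2.42, 2.16, 1.99 and 1.94 and the median score 98.9, 96.8, 88.8 and 81.1. Median wild-type E2F3 reads were 26.5, 32, 31 and 30, median IgG reads 8, 11, 13 and 13, and median lengths 564, 584, 612 and 652 bp, and their part in these shares was not tested. The H3K27me3 ratio had medians of -1.98, -1.68, -1.57 and -1.52.

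**Figure D4:**
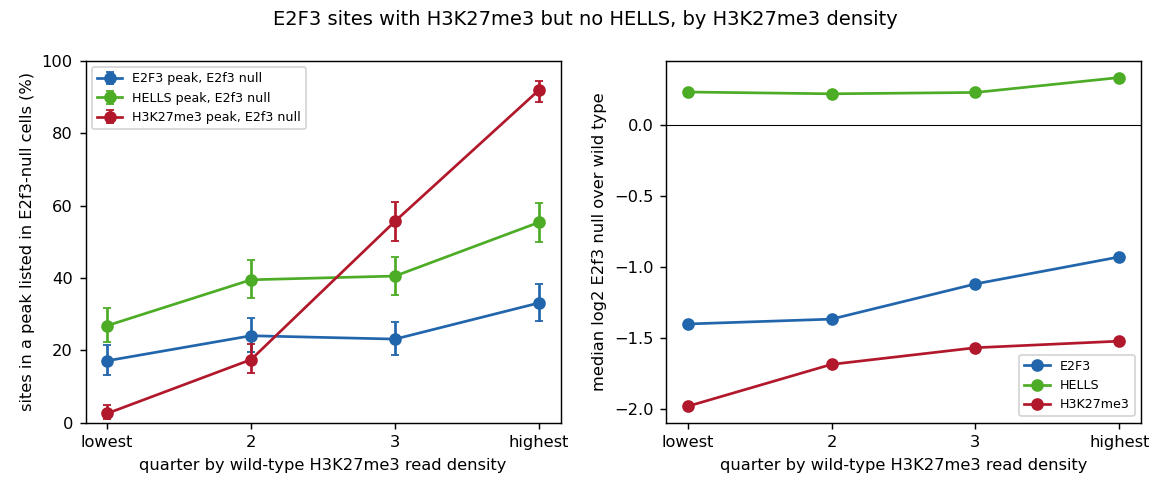
Sites in 4 equal groups by wild-type H3K27me3 reads per kb (x axis): left, percent lying in a peak listed in E2f3-null cells for each antibody, with exact 95% intervals; right, median log2 ratio, null over wild type. The share in an E2f3-null H3K27me3 peak climbs from 2.57% to 92.0%, and the E2F3 ratio moves from -1.40 to -0.93.

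By domain length the shares had no steady order, though the shortest domains had the lowest share for the mark. Of the 735 sites in domains under 2 kb, 26.1% lay in an E2f3-null H3K27me3 peak, against 59.5% of 316 sites in domains of 2 to 5 kb, 52.3% of 176 in domains of 5 to 10 kb and 66.9% of 172 in longer ones. For E2f3-null HELLS peaks the shares were 38.2%, 51.0%, 40.9% and 31.4%. E2F3 was lower at 58.6%, 51.6%, 47.7% and 49.4% of these sites. The 60 sites whose E2F3 summit lay outside the H3K27me3 peak had 0 in an E2f3-null H3K27me3 peak, and 76.7% of them were lower in E2F3.

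The lack of a listed HELLS peak did not mean a lack of HELLS reads. Wild-type HELLS reads were at least 2-fold over IgG at 485 of the 1399 sites (34.7%), against 38.6% of all wild-type E2F3 peaks, 25.5% of E2F3-alone peaks and 90.8% of sites in all 3 lists. HELLS reads also peaked at the E2F3 summit, where they were 4.62 times as dense as in the flanks with E2f3 and 5.78 times without it, against 2.84 for IgG. For the E2F3 antibody without E2f3 the ratio was 4.96. The nearest wild-type HELLS peak was within 1 kb of 19 sites, and the median distance was 212912 bp. In the wild-type HELLS list 2196 of 2489 peaks had an authors' false discovery rate above 5%, against 0 of 4740 in the E2f3-null list.

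In E2f3-null cells HELLS reads were somewhat more numerous at these sites. The summed ratio was 1.22 (1.20 to 1.25), from 22840 wild-type and 28164 null reads, and the median log2 ratio was 0.25 (quartiles -0.10 and 0.60). It was 0.18 at E2F3-alone peaks and 0.10 at sites in all 3 lists. Single sites seldom passed the 2-fold criterion: 47 (3.36%) were higher and 3 (0.214%) lower, against 2.38% and 0.641% of all wild-type E2F3 peaks. An E2f3-null HELLS peak was listed at 568 sites (40.6%, 38.0 to 43.2), against 42.2% of all wild-type E2F3 peaks, 33.8% of E2F3-alone peaks and 70.0% of sites in all 3 lists, so the share was near that of all E2F3 peaks. These 568 sites had a median log2 HELLS ratio of 0.45 and a median of 21 wild-type and 29 null HELLS reads, and the 831 others had 0.07 and 10 and 11 reads. Absence from the wild-type HELLS list chose the whole class, so the wild-type HELLS reads entered the rule. An E2f3-null HELLS peak then chose the 568 sites, which favoured a higher ratio there in advance. Nothing is read from the gap between the 568 and the 831 sites. Scaled to HELLS regions listed in both genotypes the median was 0.06.

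E2f3-null HELLS peaks and H3K27me3 peaks tended to be listed at the same sites. Of the 587 sites in an E2f3-null H3K27me3 peak 56.6% were also in an E2f3-null HELLS peak, against 29.1% of the 812 others. The first set had more reads in general, with medians of 13 and 10 IgG reads and 22 and 14 E2f3-null HELLS reads, and lengths of 650 and 565 bp. All 3 E2f3-null lists held 175 sites (12.5%), and none of them held 530 (37.9%). These overlaps were counted in this class alone, so no trait of the class is read from them. E2f3-null H3K27me3 and HELLS reads per base had a Spearman rho of 0.39 here. It was 0.23 at sites in all 3 lists, 0.32 at sites with E2F3 and HELLS alone and 0.29 at E2F3-alone peaks. Whether depth at a site set these overlaps was not tested.

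The HELLS rises ranked first by the same ratio rested on few reads, and the added 0.5 set their order. At chr4:140857882-140858291 there were 0 wild-type and 6 E2f3-null HELLS reads, at least 1.99-fold higher at the floor of 3 counts, beside 8 IgG reads. At chr12:54354508-54354697 there were 2 and 11 reads, a ratio of 5.46 (1.19 to 50.7), and at chr1:36827689-36828018 2 and 10 were counted (ratio 4.97, 1.06 to 46.6). The falls were at chr15:43001718-43002321 (13 and 2 reads, ratio 0.153, 0.0167 to 0.675), chr7:97450744-97451275 (18 and 7 reads) and chr15:74349723-74350259 (22 and 10 reads). At all 3 of these falls E2F3 and H3K27me3 reads were lower as well. The sites with most E2f3-null HELLS over IgG, on chromosome 6 from 52210791, chromosome 2 from 152549722 and chromosome 11 from 96180172, had 10, 7 and 6 HELLS reads over 0 IgG reads, so their rank came from the empty control.

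The domain with the most sites lay at chr6:52153383-52216647, where 28 H3K27me3 peaks joined over 63265 bp. H3K27me3 reads in it numbered 2160 with E2f3 and 848 without (ratio 0.527, 0.486 to 0.571), and IgG reads 485. Its 5 sites differed from each other. E2F3 reads were 26 and 18 from 52153754, 12 and 3 from 52154522, 24 and 0 from 52161606, 31 and 11 from 52210000, and 14 and 6 from 52210791. H3K27me3 reads were 64 and 16, 18 and 0, 10 and 3, 119 and 52, and 19 and 18 in the same order. The last site thus had as many H3K27me3 reads without E2f3 as with it (ratio 1.27, 0.630 to 2.56), and 0 IgG reads, while its neighbour from 52210000 had a ratio of 0.587 (0.415 to 0.819).

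The class was unevenly spread over the chromosomes. On the X chromosome 74 of 176 E2F3 peaks (42.0%, 34.7 to 49.7) had H3K27me3 and no HELLS, against 1325 of 8712 on the autosomes (15.2%, 14.5 to 15.98). Single autosomes ran from 9.96% on chromosome 16 to 19.1% on chromosome 15. The X held 5.29% of these sites and 2.13% of the wild-type H3K27me3 peaks. E2F3-alone peaks on the X also had more wild-type H3K27me3 over IgG, with a median log2 of 1.22 against 0.11 on the autosomes.

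**Figure D5:**
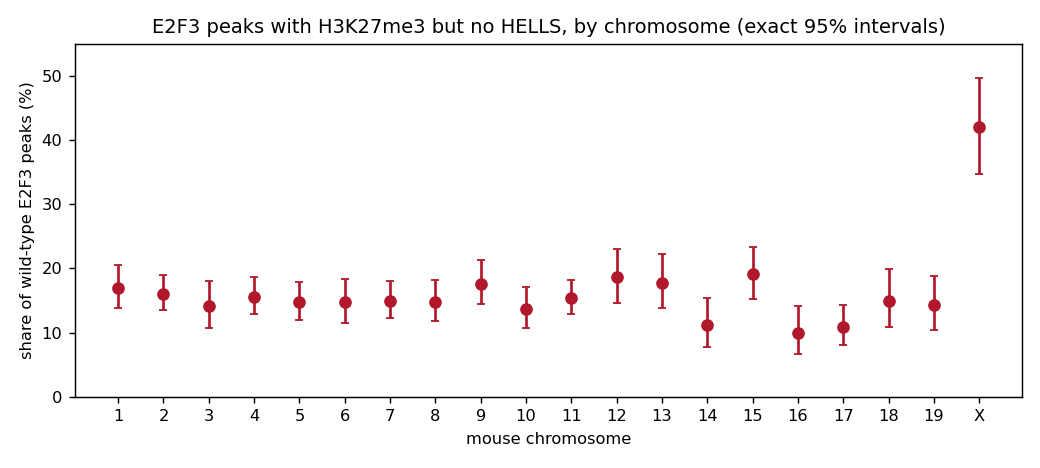
Percent of the wild-type E2F3 peaks on each chromosome (x axis) that overlap H3K27me3 and not HELLS (y axis), with exact 95% intervals. The X stands at 42.0%, and the autosomes lie between 9.96% and 19.1%.

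The 74 X-linked sites had a median log2 E2F3 ratio of -1.40 against -1.20 on the autosomes, and a median H3K27me3 ratio of -1.35 against -1.67. H3K27me3 was lower at 54.1% of the X-linked and 79.6% of the autosomal sites, with median wild-type reads of 23 and 50. The share of reads that fell on the X outside peaks differed between genotypes in every antibody: it was 3.10% and 3.64% for E2F3, 2.96% and 3.62% for HELLS, and 3.37% and 5.24% for H3K27me3 (wild type first), against 3.35% for IgG. Reads on the Y were 0.0567% and 0.0282% of the E2F3 libraries, 0.0585% and 0.0289% of HELLS, and 0.0380% and 0.0212% of H3K27me3, against 0.0491% of IgG, a value nearer to those of wild-type E2F3 and HELLS than to any null library. Whether the shared IgG bears on null-over-IgG values was not tested. In every antibody the null library had the larger X share and the smaller Y share. Their part in the X-linked values was not tested. On autosomes alone 1325 sites remained, and their median log2 ratios were -1.20 for E2F3, -1.67 for H3K27me3 and 0.24 for HELLS.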

How the data were processed

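ChIP-seq reads of 6 ChIP libraries and IgG from mouse embryonic fibroblasts were used as the authors deposited them, as lists of aligned reads. The build was mm9 according to the submitters' processing notes, and the aligner is not given in the sources used here. Peaks were called per library with MACS 1.4.0beta against IgG with a p-value limit of 1e-05, per the file headers. The deposited tables give a count of tags, a score derived from the caller's p-value, a fold enrichment as a ratio and a false discovery rate in percent for each peak, and the deposited summit files a tag signal at the summit. These values described, ranked or filtered peaks only.

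Duplicate reads with one position and strand were reduced to 1, and reads were shifted 60 bp. Reads were counted in each wild-type E2F3 peak, and each library was scaled by its distinct reads outside the 27092 merged peaks of the series. Log2 ratios used counts plus 0.5. Calls needed a 2-fold ratio and an exact conditional binomial 95% interval without 1, and shares carry Clopper-Pearson intervals. The count method was tested on simulated reads. NumPy 2.4.6, pandas 2.3.3 and SciPy 1.17.1 were used.

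Named regions were the 5 sites with the highest E2F3 score, the 5 with the highest H3K27me3 peak score, up to 3 with the largest fall and rise per antibody among those whose interval left out 1, the 3 with most E2f3-null HELLS over IgG, the domain with most sites, and 3 sites on each side of the overlap limit. The sites, lists and alternatives were chosen with earlier results of these data known, and the groups by H3K27me3 density, the classes of domain length and the chromosome shares after seeing the values here. No genome of build mm9 was used, so sequence features were not analysed here.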

Additional observations from a re-analysis of the deposited data

How the results depend on the processing

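Alternatives changed the set of sites, the scaling, the window or the threshold; the values of the other alternatives stayed within 1.5 times for counts or within the 95% interval of the median. Requiring no HELLS peak of either genotype left 831 sites: E2F3 was lower at 460 (55.4%) and H3K27me3 at 656, HELLS higher at 12, and E2f3-null peaks of E2F3 and H3K27me3 lay at 77 and 255. Median log2 ratios were -1.33 (E2F3), -1.81 (H3K27me3) and 0.0702 (HELLS), and medians over IgG were 0.63 for wild-type HELLS, 0.76 for E2f3-null HELLS and 0.77 for the E2f3-null E2F3 antibody. With E2F3 and H3K27me3 peak scores of 100 or more, 387 sites were left: E2F3 was lower at 283 (73.1%), H3K27me3 at 299 and HELLS higher at 7, and 132, 207 and 199 lay in E2f3-null E2F3, HELLS and H3K27me3 peaks. Medians were then -1.43, -1.47 and 0.32, and 0.87 and 1.13 for wild-type and E2f3-null HELLS over IgG. Scaling to regions listed in both genotypes, which removes any change common to them, gave 97 lower and 22 higher sites for E2F3 (median -0.055), 302 and 3 for H3K27me3 (-0.64), and 10 and 24 for HELLS (0.064). Scaling by all distinct reads moved the medians to -1.12 for E2F3 and -1.51 for H3K27me3. In a 500 bp window at the summit 7 sites were lower in HELLS, and the medians over IgG were 0.85 for wild-type HELLS and 0.93 for the E2f3-null E2F3 antibody. At 1.5-fold, 88 sites were higher in HELLS. Depth limits single sites: the median site held 11 E2f3-null H3K27me3 reads and 12 of the E2F3 antibody. No paired analysis was possible because each group had 1 library.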

Other observations

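Within the 1399 sites, densities of antibodies with unlike targets moved together. E2f3-null reads per base of the E2F3 and HELLS antibodies had a Spearman rho of 0.62, wild-type HELLS and IgG 0.58, wild-type E2F3 and IgG 0.51, and wild-type E2F3 and HELLS 0.48. In the same order the values were 0.76, 0.65, 0.51 and 0.50 at E2F3-alone peaks. They were 0.54, 0.56, 0.39 and 0.44 at sites in all 3 lists, and 0.59, 0.57, 0.26 and 0.36 at sites with E2F3 and HELLS alone. Positive values were thus not particular to this class. H3K27me3 stood apart in this respect at the 1399 sites, with 0.25 against IgG and 0.32 against HELLS in wild-type cells. The same values were 0.06 and 0.21 at sites in all 3 lists, 0.36 and 0.39 at sites with E2F3 and HELLS alone, and 0.50 and 0.51 at E2F3-alone peaks. Wild-type and E2f3-null H3K27me3 densities of the 1399 sites had a rho of 0.86. The order of the sites by H3K27me3 was therefore largely the same in both genotypes although the level differed. At E2F3-alone peaks the rho between wild-type and E2f3-null H3K27me3 was 0.35, from medians of 9 reads and 1 read. It was 0.90 at sites in all 3 lists and 0.35 at sites with E2F3 and HELLS alone. The kept order was thus not particular to this class. All of these are descriptions over sites that share libraries, length and base composition.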
